A study of Mus musculus with 18 samples.

Results

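Mef2a, Mef2c and Mef2d encode transcription factors of the MEF2 family, and the open chromatin around these 3 genes was followed here in muscle cells with and without MyoD. The members were the ATAC-seq peaks whose summit, the base with the most reads, lay in 1 of 3 windows of the mouse genome build mm9. The Mef2a window was chr7:74350000-74560000, the Mef2c window chr13:83620000-83830000 and the Mef2d window chr3:87910000-88010000. They held 169 of the 400115 peaks in 4 deposited lists, with 56 at Mef2a, 53 at Mef2c and 60 at Mef2d. The rule used positions alone, but it was set with earlier results of these data known.

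MEF2 proteins bind A/T-rich DNA through a MADS box and work with MyoD and its relatives to switch on muscle genes as myoblasts leave the cell cycle. Class IIa histone deacetylases hold MEF2 proteins inactive, and p38 kinase signalling releases their activity. Mef2a is needed for skeletal muscle regeneration and for the adult heart. Mef2c is needed for heart formation and for the sarcomeres of skeletal muscle. Mef2d is present in dividing myoblasts and gains a muscle-specific splice form during differentiation. MyoD is the factor that commits cells to skeletal muscle, and these 3 genes are studied both as its partners and as its targets.

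The study used ATAC-seq, in which a transposase cuts DNA that is not packed into nucleosomes, on skeletal muscle cells of wild-type and MyoD-null mice. Each group had 3 samples. The groups were myocytes labelled MyoD-null and myocytes labelled wild type, both after 24 h of myogenic differentiation, then MyoD-null myoblasts and wild-type myoblasts, for which no treatment is given. The terms mean dividing cells for myoblasts and cells that have stopped dividing and started to differentiate for myocytes, which was not measured here. The age, sex and number of mice, the allele that removes MyoD and the passage of the cells are not stated in the labels. The authors merged the 3 samples of a group before calling peaks, so each group is 1 list, no spread between samples can be given and no test between groups was possible. The series also has 6 RNA-seq samples of a muscle cell line, which were not analysed here.

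The genotype was recorded in opposite ways for both myocyte lists. The peaks in the list labelled MyoD-null carry names for wild type, and the peaks in the list labelled wild type carry names for the MyoD knockout. In myoblasts the names and labels match. The labels are used throughout for the myocyte lists, and every direction drawn between genotypes in myocytes, or between myocytes and myoblasts of 1 genotype, depends on which record is right. A prefix stands in the peak names of both myocyte lists and of neither myoblast list, so stage and processing cannot be told apart. The cell types and the loss of MyoD were not checked against marker genes, because peaks carry no gene names and no annotation of mm9 was used here.

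The sequences just upstream of the genes are shown for the sites that MEF2 proteins and the MyoD family read. They come from RefSeq on build GRCm38.p6, with 250 bases before the annotated start and 50 bases from it on, written from 5′ to 3′ on the gene's strand. All 3 genes matched, with 1 start for Mef2a, 3 for Mef2c and 1 for Mef2d. Capitals mark matches to the MEF2 site and to CANNTG, the E-box read by MyoD, on either strand.
Mef2a, chr7:67372809-67373108, minus strand: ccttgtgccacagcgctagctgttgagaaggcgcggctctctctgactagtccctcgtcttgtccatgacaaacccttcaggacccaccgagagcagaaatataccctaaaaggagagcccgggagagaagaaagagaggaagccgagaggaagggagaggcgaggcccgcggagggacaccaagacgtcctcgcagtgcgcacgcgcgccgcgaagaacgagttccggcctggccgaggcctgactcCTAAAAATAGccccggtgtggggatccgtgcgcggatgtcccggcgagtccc
Mef2c first start, chr13:83503784-83504083, plus strand: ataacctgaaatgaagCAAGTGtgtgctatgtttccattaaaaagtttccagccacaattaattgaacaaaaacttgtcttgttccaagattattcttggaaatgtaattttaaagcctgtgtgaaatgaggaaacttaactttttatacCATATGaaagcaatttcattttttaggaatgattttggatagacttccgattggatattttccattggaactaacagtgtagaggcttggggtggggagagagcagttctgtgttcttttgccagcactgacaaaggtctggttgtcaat
Mef2c last start, chr13:83573357-83573656, plus strand: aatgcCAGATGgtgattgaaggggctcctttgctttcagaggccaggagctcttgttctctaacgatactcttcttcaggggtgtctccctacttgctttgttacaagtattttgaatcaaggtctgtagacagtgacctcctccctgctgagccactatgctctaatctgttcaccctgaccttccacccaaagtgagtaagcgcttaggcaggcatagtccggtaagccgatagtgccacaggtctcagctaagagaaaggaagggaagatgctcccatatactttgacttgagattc
Mef2d, chr3:88142122-88142421, plus strand: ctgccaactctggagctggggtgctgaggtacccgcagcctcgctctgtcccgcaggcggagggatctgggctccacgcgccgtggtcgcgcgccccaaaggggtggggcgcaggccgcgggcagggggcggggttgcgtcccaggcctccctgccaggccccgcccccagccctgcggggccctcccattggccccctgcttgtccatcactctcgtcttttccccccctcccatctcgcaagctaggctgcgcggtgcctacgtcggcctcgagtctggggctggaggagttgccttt

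The Mef2a window holds a MEF2 site, CTAAAAATAG, which begins 2 bases before the start and runs past it, and it holds no CANNTG. A MEF2 site occurs in 3.19% of the 32851 windows of the same length in the table. At Mef2c, CANNTG occurs 2 times before the first start, at -234 and -100, and 1 time before the last start, at -245, where it reads CAGATG. It occurs in 72.3% of all windows, so its presence is common. TGAATCA, a match to TGANTCA, a pattern that takes in the AP-1 site and that 7.81% of all windows hold, lies at -137 of the last Mef2c start. The second Mef2c start and the Mef2d start hold no match to these motifs. The GC content was 62.3% at Mef2a, 35.7%, 47.0% and 48.3% at the 3 Mef2c starts in order along the plus strand, and 72.0% at Mef2d. The peaks are on mm9 and were not placed on these sequences, so no peak below is assigned to a promoter, exon or intron, and a match is not a bound site.

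Each peak has a fold enrichment, which the authors' peak caller gives as the reads over the summit plus 1, divided by the local background plus 1. The reads at each summit and the local background were recovered from the deposited fold and p-value. A fold is thus low either where few reads lie over the summit or where the surrounding DNA is also rich in reads. The lists held 88233 peaks in myocytes labelled MyoD-null, 112030 in myocytes labelled wild type, 101755 in MyoD-null myoblasts and 98097 in wild-type myoblasts. Their genome-wide backgrounds in reads per base were 6.34 in myocytes labelled MyoD-null, 5.29 in myocytes labelled wild type, 8.54 in MyoD-null myoblasts and 8.18 in wild-type myoblasts. The reads at the lowest listed summit were 17 in myocytes labelled MyoD-null, 15 in myocytes labelled wild type, 21 in MyoD-null myoblasts and 20 in wild-type myoblasts. Those lowest summits lay at the genome-wide background, and a higher local background raises the reads needed for a peak. A region without a peak was thus not detectable at its depth and local background, which does not show closed chromatin. A lower value can come from fewer cells with the site open or from less opening per cell, and the lists cannot tell these apart.

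Mef2c had more peaks in myocytes labelled wild type than in any other list, and Mef2d had nearly the same number everywhere. The Mef2c window held 11 peaks in myocytes labelled MyoD-null, 21 in myocytes labelled wild type, 11 in MyoD-null myoblasts and 10 in wild-type myoblasts. The Mef2a window held 13 in myocytes labelled MyoD-null, 19 in myocytes labelled wild type, 13 in MyoD-null myoblasts and 11 in wild-type myoblasts. The Mef2d window held 13 in myocytes labelled MyoD-null, 16 in myocytes labelled wild type, 16 in MyoD-null myoblasts and 15 in wild-type myoblasts. Among the lists as deposited, myocytes labelled wild type had the most peaks at Mef2a and Mef2c, and the other 3 lists stayed within 2 peaks of each other at Mef2a and within 1 at Mef2c.

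**Figure D1:**
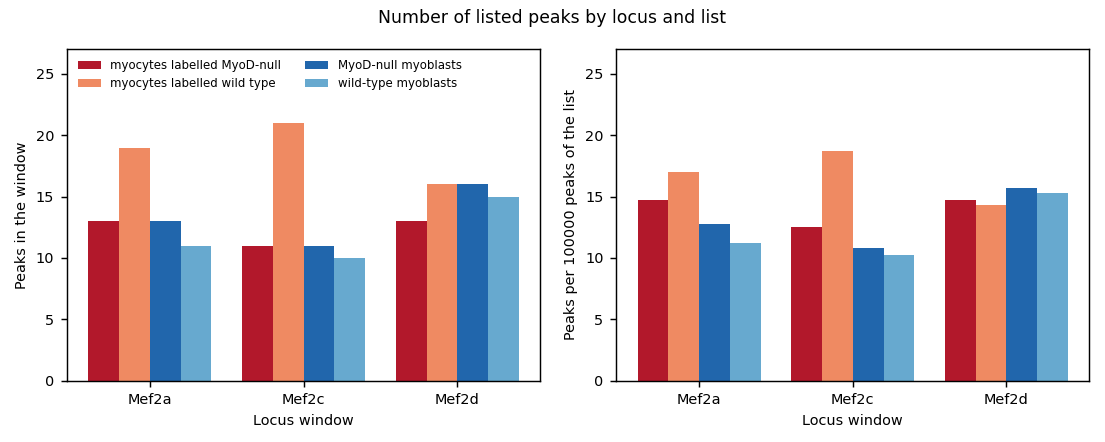
Number of peaks with a summit at Mef2a, Mef2c and Mef2d, 1 bar per list, as listed (left panel, peaks in the window) and scaled to 100000 peaks per list (right panel). Mef2c has 21 peaks in myocytes labelled wild type and 10 or 11 in each other list, while Mef2d has 13 to 16 in all 4 lists.

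The list of myocytes labelled wild type was also the longest. With each list cut to its 88233 best peaks, the Mef2c counts were 11 in myocytes labelled MyoD-null, 16 in myocytes labelled wild type, 11 in MyoD-null myoblasts and 10 in wild-type myoblasts. Mef2a then had 13 in myocytes labelled MyoD-null, 13 in myocytes labelled wild type, 13 in MyoD-null myoblasts and 11 in wild-type myoblasts, so its higher count in myocytes labelled wild type was gone against 2 of the 3 other lists. Mef2d had 13 in myocytes labelled MyoD-null, 13 in myocytes labelled wild type, 14 in MyoD-null myoblasts and 14 in wild-type myoblasts. Counts were also scaled to 100000 peaks per list. Mef2c then had 18.7 peaks in myocytes labelled wild type and 10.2 in wild-type myoblasts, a difference of 8.6. Over the genome, 0.477% of windows of 210 kb with a peak showed a difference of that size or more. The windows were not matched for their number of peaks, and the median one held 9 in myocytes labelled wild type and 8 in wild-type myoblasts. A difference of this size cannot arise where peaks are few. Mef2c had 12.5 scaled peaks in myocytes labelled MyoD-null, which is 6.3 fewer than in myocytes labelled wild type, and 1.58% of windows had a difference as low or lower. Mef2a had 17.0 scaled peaks in myocytes labelled wild type and 11.2 in wild-type myoblasts, a difference of 5.7 that 2.65% of windows reached. Under the label MyoD-null, myocytes exceeded myoblasts by 1.7 at Mef2c and 2.0 at Mef2a, which 21.2% and 18.5% of windows reached. Scaling left Mef2d with 14.7 and 14.3 in the myocyte lists labelled MyoD-null and wild type, and with 15.7 and 15.3 in MyoD-null and wild-type myoblasts. Between the myoblast genotypes, the scaled counts differed by 1.6 at Mef2a, 0.6 at Mef2c and 0.4 at Mef2d.

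Mef2d was the most densely marked of the loci for its length. Its window of 100 kb was covered by peaks over 7.75% of its bases in myocytes labelled MyoD-null, 10.0% in myocytes labelled wild type, 7.52% in MyoD-null myoblasts and 7.54% in wild-type myoblasts. Of all windows of 100 kb with a peak, 2.67% to 6% held as many peaks in the same list. The Mef2c window was covered over 3.33% and 6.10% in myocytes labelled MyoD-null and wild type, and over 2.64% and 2.70% in MyoD-null and wild-type myoblasts. At Mef2a the cover was 3.59% in myocytes labelled MyoD-null, 4.99% in myocytes labelled wild type, 3.17% in MyoD-null myoblasts and 3.00% in wild-type myoblasts.

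**Figure D2:**
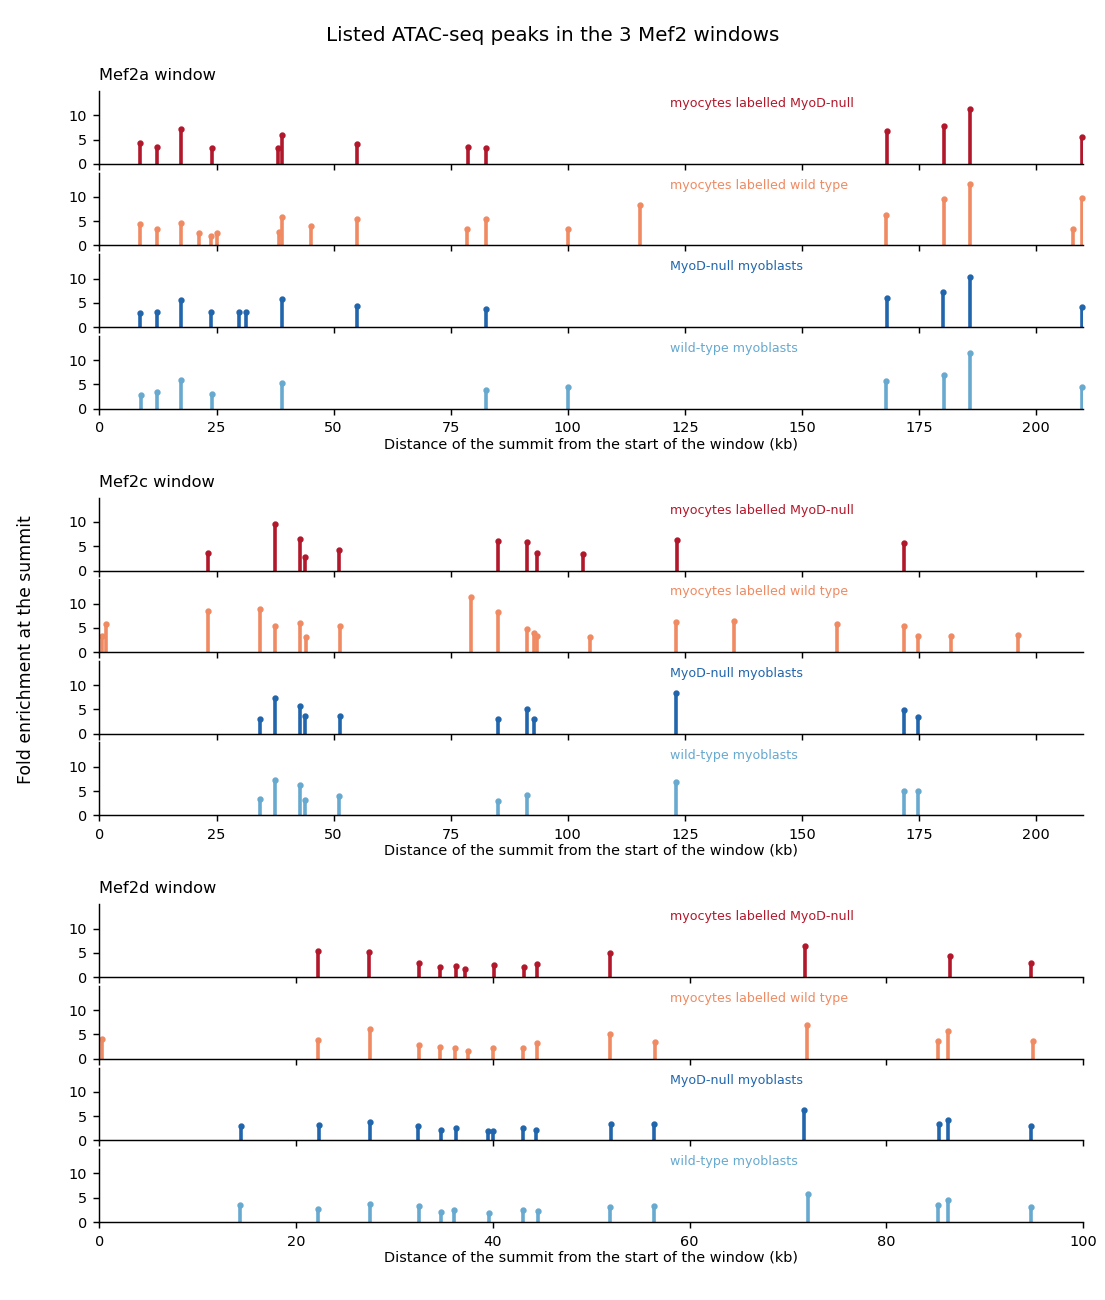
Peaks along the 3 windows, 1 row per list, with distance from the window start in kb on the horizontal axis and the fold enrichment at the summit as bar height. A block of low peaks fills the middle of the Mef2d window in all 4 lists, and the Mef2c window has a peak of 11.4-fold in myocytes labelled wild type that the other lists lack.

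Peaks of the 4 lists that overlapped by at least 1 bp were merged into 60 regions, with 21 at Mef2a, 22 at Mef2c and 17 at Mef2d. Of these, 30 had a peak in all 4 lists, which is 50% (exact 95% interval 36.8 to 63.2, counting error only) against 45.9% of the 141979 regions of the genome. Mef2d had 12 such regions of 17, or 70.6% (interval 44.0 to 89.7). Mef2a had 10 of 21, or 47.6% (25.7 to 70.2), and Mef2c had 8 of 22, or 36.4% (17.2 to 59.3). The intervals of the 3 genes overlap. Regions in myocytes labelled wild type alone numbered 8 at Mef2c, 5 at Mef2a and 1 at Mef2d, against 16.3% of all regions in the genome. No region was in wild-type myoblasts alone, against 3.74% of all. The list of myocytes labelled wild type supplied 56.4% of all regions of the genome found in a single list.

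Mef2c, the member tied most closely to sarcomere assembly, had the tallest peak of its window in a single list. The region at chr13:83699105-83699698 was listed only in myocytes labelled wild type, with a fold of 11.4 and 76 reads (exact 95% interval 59.9 to 95.1) over a local background of 5.78. Of the 23132 regions found only in that list, 0.160% had a fold as high. The lowest summits listed anywhere in the other lists had 17 to 21 reads.

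Both myocyte lists, and neither myoblast list, held a peak at chr13:83642497-83643674. It had a fold of 3.68 with 26 reads in myocytes labelled MyoD-null and a fold of 8.46 with 97 reads in myocytes labelled wild type. The log2 ratio of these folds was -1.20 (95% interval of the reads -1.93 to -0.60), or -1.04 relative to the genome-wide median. A second region of this kind, chr13:83713396-83713670, was weak, with 28 reads in myocytes labelled MyoD-null and 23 in myocytes labelled wild type. Such regions numbered 2 at Mef2a, 2 at Mef2c and 1 at Mef2d, against 3.42% of all regions.

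A Mef2c region found in all 4 lists was higher in both myocyte lists. At chr13:83704497-83705721 the fold was 6.08 with 47 reads in myocytes labelled MyoD-null, 8.35 with 72 reads in myocytes labelled wild type, 3.04 with 28 reads in MyoD-null myoblasts and 2.94 with 26 reads in wild-type myoblasts. Both myocyte values stood above both myoblast values. The log2 ratio of myocytes over myoblasts was 1.0 (interval 0.31 to 1.75) under the label MyoD-null and 1.51 (0.88 to 2.25) under the label wild type. Relative to the genome-wide medians these were 0.83 and 1.16.

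Closer to the start of the window, chr13:83653996-83654749 had a fold of 8.90 with 127 reads in myocytes labelled wild type and no peak in myocytes labelled MyoD-null. It had a fold of 3.09 with 30 reads in MyoD-null myoblasts and 3.36 with 31 reads in wild-type myoblasts. The single tall value was thus in myocytes labelled wild type, with a log2 ratio to wild-type myoblasts of 1.40 (0.86 to 2.06). The neighbouring region at chr13:83657014-83657735 was in all 4 lists and had the opposite order of folds in myocytes, 9.59 under the label MyoD-null and 5.33 under the label wild type. Its folds were 7.36 in MyoD-null myoblasts and 7.33 in wild-type myoblasts. The reads at its summit were closer, with 93 in myocytes labelled MyoD-null, 78 in myocytes labelled wild type, 72 in MyoD-null myoblasts and 67 in wild-type myoblasts. The local background was 13.8 in myocytes labelled wild type against 8.28 to 8.92 in the other lists.

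**Figure D3:**
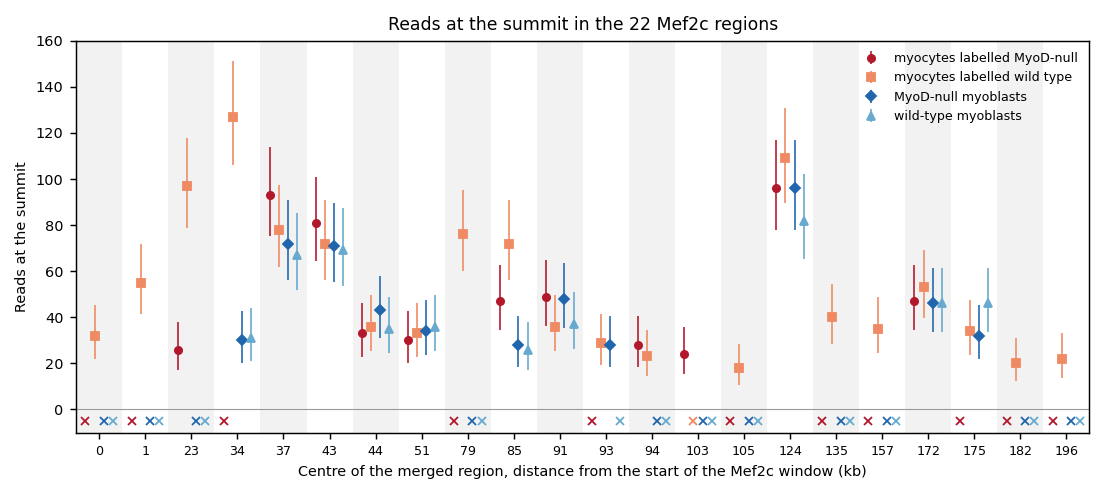
Reads at the summit (vertical axis) in the 22 Mef2c regions, in order of their distance from the window start in kb (horizontal axis), with exact 95% Poisson intervals for counting error only and crosses where a list has no peak. The regions starting at 83642497, 83653996, 83699105 and 83704497, about 23, 34, 79 and 85 kb along, are highest in myocytes labelled wild type, with 97, 127, 76 and 72 reads.

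Other Mef2c regions had similar reads in all 4 lists, without scaling for depth, and those named here were picked for that. At chr13:83662459-83663581 the reads were 81 and 72 in myocytes labelled MyoD-null and wild type, and 71 and 69 in MyoD-null and wild-type myoblasts. Over the genome-wide background of each list, these were 11.2 and 11.6 times in myocytes and 7.55 and 7.63 times in myoblasts. Shared regions over the genome shifted the same way, with median log2 ratios of 0.31 and 0.61 under the labels MyoD-null and wild type. At chr13:83791503-83792485 the reads were 47 in myocytes labelled MyoD-null, 53 in myocytes labelled wild type, 46 in MyoD-null myoblasts and 46 in wild-type myoblasts. The region with the lowest ratio of myocytes to myoblasts, chr13:83742817-83744363, had folds of 6.22 in myocytes labelled MyoD-null, 6.30 in myocytes labelled wild type, 8.45 in MyoD-null myoblasts and 6.88 in wild-type myoblasts. Its log2 ratio was -0.44 (-0.87 to -0.02) under the label MyoD-null. The reads there were 96 in myocytes labelled MyoD-null, 109 in myocytes labelled wild type, 96 in MyoD-null myoblasts and 82 in wild-type myoblasts, so myocytes did not have fewer reads than myoblasts. The local background was 14.6 in myocytes labelled MyoD-null, 16.5 in myocytes labelled wild type, 10.5 in MyoD-null myoblasts and 11.1 in wild-type myoblasts.

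Regions of 3 lists numbered 5 at the 3 genes. Every list but myocytes labelled MyoD-null held 2 at Mef2c and 2 at Mef2d, against 4.87% of all regions, and every list but wild-type myoblasts held 1, at Mef2a, against 1.63%. None was absent from myocytes labelled wild type alone or from MyoD-null myoblasts alone, where 2.97% and 1.98% of all regions were.

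Regions listed by genotype alone were few at Mef2c, as they were over the genome. No Mef2c region was listed in both lists labelled MyoD-null alone, or in both lists labelled wild type alone, where 0.816% and 1.81% of all regions were. By the genotypes in the peak names, no region of the 3 genes was listed in both wild-type lists alone, against 0.854% of all, and chr13:83712574-83712923 was listed only in both MyoD-null lists, as 2.21% of all regions were, with 29 reads in myocytes labelled wild type and 28 in MyoD-null myoblasts. The only region of the 3 genes in myocytes labelled MyoD-null alone, chr13:83723120-83723419, had 24 reads, and 3.42% of all regions were of that kind. Besides the tallest one, the 7 other regions of myocytes labelled wild type alone had folds of 3.02 to 6.31 and 18 to 55 reads.

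At Mef2a, the member known from muscle regeneration, the tallest peak was open in every list. The region at chr7:74535454-74536358 had folds of 11.3 in myocytes labelled MyoD-null, 12.6 in myocytes labelled wild type, 10.3 in MyoD-null myoblasts and 11.5 in wild-type myoblasts. The reads were 131 in myocytes labelled MyoD-null, 118 in myocytes labelled wild type, 116 in MyoD-null myoblasts and 118 in wild-type myoblasts. The 4 values lie within each other's counting intervals. The regions at chr7:74529775-74530784 and chr7:74517494-74518691, on the same side of the window, had 103 to 142 reads in the 4 lists.

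One Mef2a region in all 4 lists was high in a single list. At chr7:74559461-74560121 there were 39 reads in myocytes labelled MyoD-null, 81 in myocytes labelled wild type, 38 in MyoD-null myoblasts and 40 in wild-type myoblasts. Its folds were 5.45 in myocytes labelled MyoD-null, 9.74 in myocytes labelled wild type, 4.09 in MyoD-null myoblasts and 4.47 in wild-type myoblasts. The log2 ratio of myocytes labelled wild type to wild-type myoblasts was 1.12 (0.58 to 1.73), or 0.78 relative to the median. Between the myocyte lists, MyoD-null over wild type by the labels, it was -0.84 (-1.45 to -0.29).

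The Mef2a regions that only the myocyte lists shared were weak. At chr7:74388064-74388378 there were 31 reads in myocytes labelled MyoD-null and 32 in myocytes labelled wild type, and at chr7:74428423-74428813 there were 25 in myocytes labelled MyoD-null and 22 in myocytes labelled wild type. Among the 5 regions of myocytes labelled wild type alone, the tallest was chr7:74465021-74465689, with a fold of 8.43 and 52 reads (38.8 to 68.2). Regions of MyoD-null myoblasts alone numbered 2, against 5.45% of all regions, and the one named by the rule, chr7:74379764-74380145, had 32 reads and a fold of 3.14. A region listed in both lists labelled wild type alone, chr7:74449834-74450180, had 20 reads in myocytes labelled wild type and 40 in wild-type myoblasts. Among all regions, 1.81% had that pattern.

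Near the start of the Mef2a window, myocytes labelled wild type had a raised background over 8.8 kb. From chr7:74366845 to 74375617 the local background was 25.1 to 38.0 reads in myocytes labelled wild type, against 11.8 to 18.3 in myocytes labelled MyoD-null, 15.3 to 21.3 in MyoD-null myoblasts and 13.6 to 19.9 in wild-type myoblasts. This list had 4 peaks there and each other list 2. At chr7:74366845-74368054 the reads were 137 in myocytes labelled MyoD-null, 145 in myocytes labelled wild type, 124 in MyoD-null myoblasts and 122 in wild-type myoblasts. Its folds were 7.17 in myocytes labelled MyoD-null, 4.69 in myocytes labelled wild type, 5.61 in MyoD-null myoblasts and 5.90 in wild-type myoblasts. The fold was thus lowest in the list with the most reads. At chr7:74373802-74374295 the folds were 3.29 and 1.85 in myocytes labelled MyoD-null and wild type, and 3.01 in both myoblast lists. The reads there were 41 in myocytes labelled MyoD-null, 48 in myocytes labelled wild type, 48 in MyoD-null myoblasts and 43 in wild-type myoblasts. Its log2 ratio under the label wild type was -0.70 (-1.32 to -0.07), or -1.05 relative to the median, and on the scale of reads over the genome-wide background it was 0.09 relative to the median.

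At Mef2d, the member known from dividing myoblasts, the peaks were largely those of all 4 lists. The tallest, chr3:87980933-87982412, had folds of 6.49 in myocytes labelled MyoD-null, 6.95 in myocytes labelled wild type, 6.31 in MyoD-null myoblasts and 5.86 in wild-type myoblasts. The reads were 165 in myocytes labelled MyoD-null, 180 in myocytes labelled wild type, 153 in MyoD-null myoblasts and 141 in wild-type myoblasts. The counting intervals of these reads, which are not scaled for depth, overlap between the myocyte and myoblast lists. On the scale of folds, no region of Mef2d passed the 1.5-fold rule under the label wild type or between the myoblast genotypes. With reads over the genome-wide background, 2 regions were higher and 1 lower under the label wild type. The higher ones, named after their values were seen, were chr3:87936974-87937987 and chr3:87953742-87954798. At chr3:87936974-87937987 the reads were 80 in myocytes labelled MyoD-null, 137 (115 to 162) in myocytes labelled wild type, 69 in MyoD-null myoblasts and 65 in wild-type myoblasts. At chr3:87953742-87954798 they were 66 in myocytes labelled MyoD-null, 109 (89.5 to 131) in myocytes labelled wild type, 53 in MyoD-null myoblasts and 50 in wild-type myoblasts. Relative to the median, these were log2 ratios of 1.0 and 1.05 under the label wild type. On the scale of folds they were 0.37 and 0.20, with local backgrounds of 21.2 and 32.1 in myocytes labelled wild type against 16.4 and 21.5 in wild-type myoblasts.

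The Mef2d window also held a run of 7 regions over 12.6 kb, chr3:87942191-87954798, in which reads were high and folds low. The run was defined after the values were seen, as regions at most 4 kb apart. It held 7 peaks in myocytes labelled MyoD-null, 7 in myocytes labelled wild type, 7 in MyoD-null myoblasts and 6 in wild-type myoblasts. Summit reads were 64 to 133 in myocytes labelled MyoD-null, 84 to 134 in myocytes labelled wild type, 53 to 123 in MyoD-null myoblasts and 50 to 124 in wild-type myoblasts, and the folds stayed between 1.69 and 3.32. The local background there was 24.0 to 55.6 reads in myocytes labelled MyoD-null, 32.1 to 60.2 in myocytes labelled wild type, 24.4 to 49.7 in MyoD-null myoblasts and 21.5 to 46.5 in wild-type myoblasts. Summits of the run were also set against the genome-wide background of their own list. The median one stood 15 and 18.8 times as high in the myocyte lists labelled MyoD-null and wild type. It stood 9.01 and 9.15 times as high in MyoD-null and wild-type myoblasts. Shared regions over the genome also shifted towards myocytes on this scale, with median log2 ratios of 0.31 and 0.61 under those labels. Over the genome, the share of peaks with a local background above 2 times the genome-wide one was 29.2% in myocytes labelled MyoD-null, 32.8% in myocytes labelled wild type, 18.8% in MyoD-null myoblasts and 18.2% in wild-type myoblasts.

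**Figure D4:**
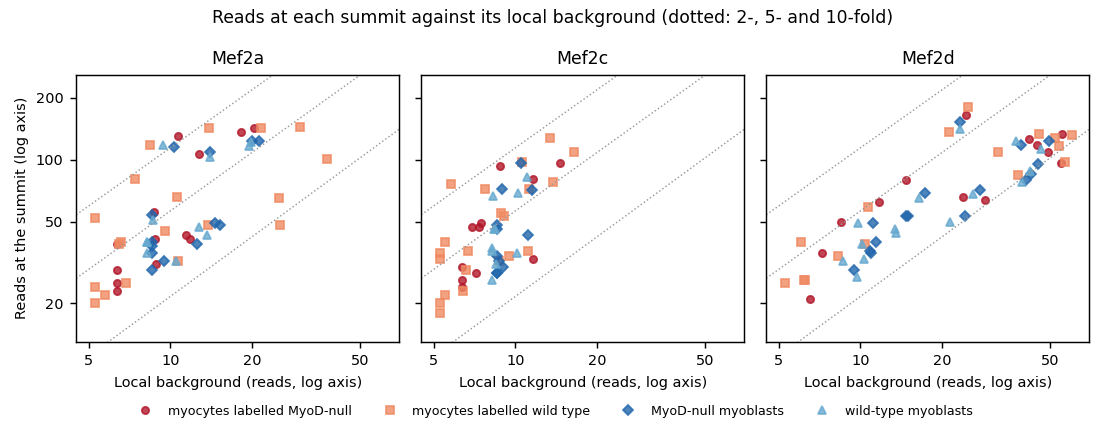
Summit reads (vertical log axis) against local background in reads (horizontal log axis) for the peaks at each gene, with points marked by list and dotted lines at 10-fold, 5-fold and 2-fold. The Mef2d peaks of the 12.6 kb run lie to the right, at backgrounds of 21.5 to 60.2 reads and near the lowest line, and the Mef2c peaks stay below 17.

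At chr3:87947159-87947518, inside the run, both myocyte lists had a peak and the myoblast lists had none. There were 96 reads in myocytes labelled MyoD-null and 97 in myocytes labelled wild type, but folds of 1.74 and 1.69. The myoblast reads there are not known. At chr3:87949337-87950216, also in the run, MyoD-null and wild-type myoblasts had 85 and 78 reads over local backgrounds of 42.5 and 39.5. The reverse pattern, both myoblast lists and neither myocyte list, occurred 1 time, against 4.64% of all regions. It was at chr3:87924096-87924460, with 29 reads in MyoD-null myoblasts and 32 in wild-type myoblasts. The highest ratio of myocytes to myoblasts was at chr3:87932002-87932409, with folds of 5.38 and 3.77 in myocytes labelled MyoD-null and wild type, and 3.13 and 2.61 in MyoD-null and wild-type myoblasts. There the log2 ratio under the label MyoD-null was 0.78 (0.15 to 1.45), or 0.61 relative to the median. The lowest ratio was at chr3:87952964-87953349, with folds of 2.18 in myocytes labelled MyoD-null, 2.16 in myocytes labelled wild type, 2.52 in MyoD-null myoblasts and 2.54 in wild-type myoblasts. The only Mef2d region of myocytes labelled wild type alone, chr3:87910147-87910496, had 25 reads.

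Differentiation under the label wild type gave shares of unshared peaks that differed among the genes, with overlapping intervals. Of the peaks in myocytes labelled wild type, 11 of 21 at Mef2c (52.4%, interval 29.8 to 74.3) had no overlap with a peak of wild-type myoblasts. At Mef2a it was 8 of 19 (42.1%, 20.3 to 66.5) and at Mef2d 2 of 16 (12.5%, 1.55 to 38.3). Over all peaks of that list it was 30.0%, which lies inside each of the 3 intervals. In the other direction, 1 of 36 wild-type myoblast peaks at the 3 genes had no overlap in myocytes labelled wild type, or 2.78% (0.0703 to 14.5) against 18.0% of all peaks. With lists of equal length it was 6 of 35, or 17.1% (6.56 to 33.6) against 23.1% of all, and in the first direction 13 of 42, or 31.0% (17.6 to 47.1) against 25.1%.

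Differentiation under the label MyoD-null gave a smaller share of unshared myocyte peaks than under the label wild type. The share of unshared myoblast peaks was larger. In the lists as deposited, the shares of all peaks had the same order. Of the peaks in myocytes labelled MyoD-null, 3 of 11 at Mef2c, 2 of 13 at Mef2a and 1 of 13 at Mef2d had no overlap in MyoD-null myoblasts. That is 6 of 37 in all, or 16.2% (6.19 to 32.0), and the share of all peaks was also 16.2%. Of the MyoD-null myoblast peaks, 8 of 40 (20%, 9.05 to 35.6) had no overlap in myocytes labelled MyoD-null, against 24.7% of all. With lists of equal length the shares were 7 of 37 (18.9%) for myocytes labelled MyoD-null, against 20.9% of all, and 7 of 38 (18.4%) for MyoD-null myoblasts, against 18.6%.

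MyoD-null and wild-type myoblasts shared most peaks at these genes. Of the MyoD-null myoblast peaks, 5 of 40 (12.5%, 4.19 to 26.8) had no overlap in wild-type myoblasts, against 14.8% of all, and 3 of the 5 were at Mef2a. Of the wild-type myoblast peaks, 1 of 36 had none in MyoD-null myoblasts, or 2.78% against 12.8% of all. With lists of equal length these were 6 of 38 (15.8%) against 12.7% and 3 of 35 (8.57%) against 13.7%. None of the 35 regions shared by both myoblast lists differed by 1.5-fold or more after the median was taken out, where 0.345% of all shared regions were higher and 0.305% lower in MyoD-null myoblasts. The median log2 ratio relative to the genome was -0.04 at Mef2a, -0.02 at Mef2c and -0.01 at Mef2d.

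Between the myocyte lists, 1 peak under the label MyoD-null had no partner under the label wild type, and more were without one in the reverse direction. Without overlap were 1 of 37 peaks of myocytes labelled MyoD-null (2.70%, 0.0684 to 14.2), against 13.1% of all, and 20 of 56 peaks of myocytes labelled wild type (35.7%, 23.4 to 49.6), against 32.0%. Of those 20, 11 were at Mef2c, 6 at Mef2a and 3 at Mef2d. If the peak names are right, these 20 peaks belong to MyoD-null myocytes. With lists of equal length the shares were closer, at 8 of 37 peaks of myocytes labelled MyoD-null (21.6%, 9.83 to 38.2), against 22.3% of all, and 13 of 42 peaks of myocytes labelled wild type (31.0%, 17.6 to 47.1), against 23.2%. Of those 13, 8 were at Mef2c.

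With the genotypes read from the peak names, the differentiation comparisons use other pairs of lists. Myocytes labelled wild type, read as MyoD-null, had 20 of 56 peaks (35.7%) without overlap in MyoD-null myoblasts, against 30.0% of all, and 10 of those were at Mef2c. Of the MyoD-null myoblast peaks, 3 of 40 (7.50%) had no overlap in that list, against 19.8% of all. Myocytes labelled MyoD-null, read as wild type, had 7 of 37 peaks (18.9%) without overlap in wild-type myoblasts, against 15.5% of all. Of the wild-type myoblast peaks, 6 of 36 (16.7%) had no overlap in that list, against 22.3% of all. The record of genotype cannot move a peak between lists. It changes the genotype given to each myocyte peak, the added Mef2c peaks among them, and the myoblast list such a peak is set against. The shares and median ratios of those comparisons change with it, and between the myocyte lists the ratios change sign.

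In regions that both lists of a comparison held, most folds stayed within 1.5-fold of the genome-wide median. Under the label MyoD-null, 2 of 31 shared regions were higher in myocytes by 1.5-fold or more relative to the median and 2 were lower, against 3.61% and 2.82% of all shared regions. Under the label wild type, 3 of 35 were higher and 5 lower, against 7.76% and 4.74%. Between the myocyte lists, 4 of 36 were higher under the label MyoD-null and 2 were lower, against 5.21% and 7.65%. These regions are the ones described above for each gene, apart from chr13:83663794-83664213 and chr13:83794426-83794902 at Mef2c, named after their values were seen.

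The balance of these calls depended on the scale. With reads over the genome-wide background in place of folds, 5 of the 35 shared regions were higher in myocytes labelled wild type than in wild-type myoblasts and 2 were lower, against 10.4% and 10.1% of all shared regions. In the comparison of the myocyte lists, 1 of 36 was then higher under the label MyoD-null and 5 were lower, against 8.89% and 10.7%. Under the label MyoD-null, 1 of 31 was higher in myocytes and 1 lower, against 4.59% and 8.19%. Between the myoblast genotypes, none of 35 was higher in MyoD-null and 1 was lower, chr13:83794426-83794902 at Mef2c, against 0.416% and 0.403%. That region had 32 reads and a fold of 3.4 in MyoD-null myoblasts, and 46 reads and a fold of 5.04 in wild-type myoblasts.

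The genes' median ratios were small on both scales. Under the label wild type, the median log2 ratio of folds relative to the genome was -0.21 at Mef2a, -0.33 at Mef2c and -0.11 at Mef2d. With reads over the genome-wide background in place of folds it was 0.19, 0.07 and 0.25, so this direction depends on the scale at all 3 genes. Under the label MyoD-null the medians of folds were -0.04, 0.03 and -0.09 in the same order of genes, and those of reads 0.11, 0.10 and 0.23. Between the myocyte lists, MyoD-null over wild type by the labels, they were 0.19, 0.20 and 0.11 for folds and -0.08, -0.05 and -0.05 for reads. The genome-wide medians taken out of the folds were 0.17 and 0.35 for differentiation under the labels MyoD-null and wild type, 0.02 between the myoblast genotypes and -0.16 between the myocyte lists.

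**Figure D5:**
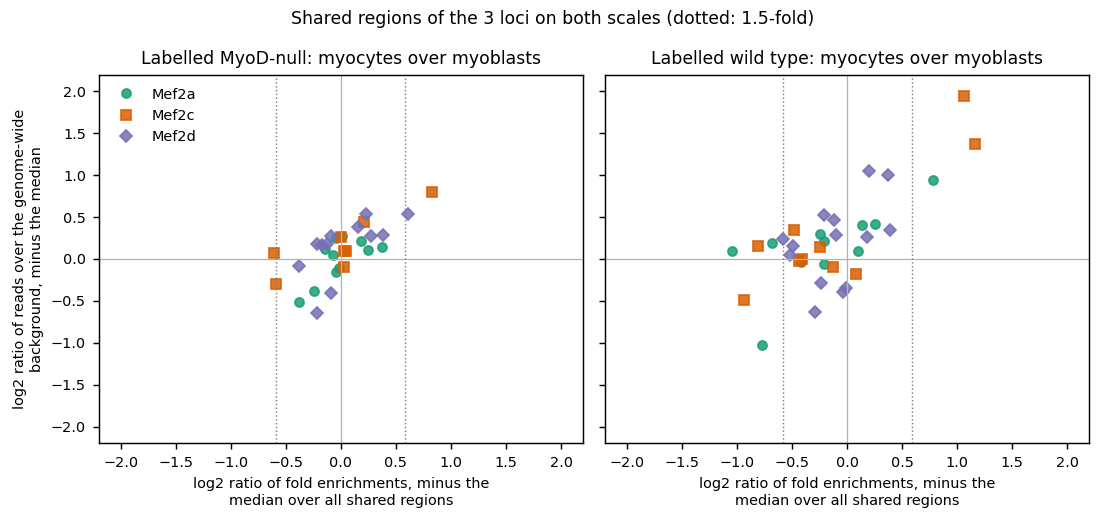
Log2 ratio of myocytes over myoblasts for each region shared by both lists, as folds (horizontal axis) and as reads over the genome-wide background (vertical axis), each minus its genome-wide median, under the label MyoD-null (left) and wild type (right), with dotted lines at 1.5-fold. The Mef2c region starting at 83704497 lies to the right of the lines in both panels, at 0.83 and 1.16 on the scale of folds.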

How the data were processed

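ATAC-seq of 12 samples in 4 groups was available as 4 peak lists, 1 per group, called on merged samples as the peak names show. The submitters' processing notes name build mm9, MACS2 and deepTools, with no versions. The labels do not state the aligner, the caller's settings or a shift of reads for the transposase. The deposited fold enrichment of each peak is a ratio, as defined in the results, and each peak also has a deposited −log10 p and −log10 q. The deposited score was not used. The lowest −log10 q was 2.02, which matches a q limit of 0.01.

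For each peak, 1 whole number of reads and 1 local background gave both the deposited fold and the deposited −log10 p, to within 0.01, under a Poisson tail and a pseudocount of 1. Background steps were 0.02 reads. Reads per sample are unknown. Mitochondrial peaks, 2 or 3 per list, were removed. Regions were merged over the 4 lists at an overlap of 1 bp, and each list took its highest fold in a region. Folds of shared regions were compared as log2 ratios minus the genome-wide median, with a rule of 1.5-fold. Intervals are exact Poisson or binomial 95% intervals and cover counting error only, and reads without molecular identifiers are not independent molecules. With 1 list per group there is no test and no p-value.

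The members and the alternatives were chosen with earlier results of these data known. The rule for named regions took, per gene, the region with the highest fold, those of both myocyte or both myoblast lists alone, those of both lists of 1 genotype alone, the highest and lowest myocyte-to-myoblast ratio in all 4 lists, and the tallest of each single list. Other regions were named after their values were seen, because they passed the 1.5-fold rule on either scale, showed steady reads or had a raised background. Alternatives were a −log10 q of 5, a fold of 5, lists of 88233 peaks each, windows by overlap, a reciprocal overlap of 50%, summits within 250 bp, reads over the genome-wide background and the genotypes of the peak names. The steps were tested on 20000 simulated peaks and gave 7 of 7 known quantities. Scripts ran in Python 3.11.15 with scipy 1.17.1, pandas 2.3.3, numpy 2.4.6 and, for plots, matplotlib 3.10.9. Repeats and regions of artefact signal were not filtered out.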

Additional observations from a re-analysis of the deposited data

Results flagged for a closer look

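At both of these regions the fold moved in opposite directions with differentiation under the 2 genotype labels, each ratio being myocytes over myoblasts relative to the genome-wide median. The difference was not tested, since each group is 1 list. At Mef2c, chr13:83657014-83657735 had a log2 ratio of 0.21 under the label MyoD-null and -0.81 under the label wild type. On the scale of reads over the genome-wide background the ratios were 0.44 under the label MyoD-null and 0.16 under the label wild type. At Mef2a, chr7:74366845-74368054 had a log2 ratio of 0.18 under the label MyoD-null and -0.68 under the label wild type, and on the scale of reads 0.21 under the label MyoD-null and 0.19 under the label wild type. At both, the signs differed on the scale of folds alone. The local background at the Mef2c region was 8.80 reads in myocytes labelled MyoD-null and 13.8 in myocytes labelled wild type, and at the Mef2a region 18.3 and 30.2 reads in those lists.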

How the results depend on the processing

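No paired analysis was possible because each group is 1 list called on merged samples, and for the same reason no sample could be left out. Within each family of results, all 12 peak counts, 12 median ratios and 24 shares without overlap moved by less than their intervals or 1.5 times under a −log10 q of 5 and under lists of equal length, as did the counts under windows by overlap, the shares under a reciprocal overlap of 50%, and the shares and medians under summits within 250 bp. The intervals of the shares are wide, as each rests on few peaks, so a share inside its interval is not shown to be steady. With lists of equal length, myocytes labelled MyoD-null went from 0% to 23.1% of Mef2a peaks without overlap in myocytes labelled wild type. Over the 3 genes together this share went from 2.70% as deposited to 21.6%, and over all peaks from 13.1% to 22.3%. For wild-type myoblast peaks without overlap in myocytes labelled wild type, the share went from 0% to 18.2% at Mef2a. At Mef2d it went from 6.67% to 21.4%, over the 3 genes from 2.78% to 17.1%, and over all peaks from 18.0% to 23.1%.

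A fold of 5 or more kept fewer peaks. In the order myocytes labelled MyoD-null, myocytes labelled wild type, MyoD-null myoblasts and wild-type myoblasts, the counts were 6, 8, 5 and 5 at Mef2a, 6, 12, 4 and 5 at Mef2c, and 3, 4, 1 and 1 at Mef2d. Shares without overlap under that fold were 66.7% at Mef2d for myocytes and 0% at each gene for myoblasts under the label MyoD-null, and 75% for myocytes and 0% for myoblasts at Mef2d under the label wild type. Between the myoblast lists they were 0% at Mef2a and Mef2d for MyoD-null, and 0% at Mef2a and 40% at Mef2c for wild type. Between the myocyte lists at Mef2d they were 33.3% for the label MyoD-null and 50% for the label wild type. These Mef2d shares rest on the 3, 4, 1 and 1 peaks counted above, and no share over all peaks is given for that fold. The shares are thus not read as results about the genes. The limit held for both lists, so an unshared peak can overlap a weaker one. At chr3:87932002-87932409 the folds were 5.38 in myocytes labelled MyoD-null and 3.13 in MyoD-null myoblasts. For myocytes against myoblasts under the label MyoD-null, Mef2a had 16.7% and Mef2c 33.3%. Under the label wild type they had 50% and 66.7%. Over all peaks, the median fold was 4.42 and 4.8 in myocytes labelled MyoD-null and wild type. It was 3.73 and 3.75 in MyoD-null and wild-type myoblasts.

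With the genotypes of the peak names, 0% of MyoD-null myoblast peaks at Mef2c had no overlap in MyoD-null myocytes, against 19.8% of all. Of the wild-type myocyte peaks there, 27.3% had no overlap in wild-type myoblasts, against 15.5% of all. Between the myocyte lists so read, the shares for MyoD-null were 31.6% at Mef2a, 52.4% at Mef2c and 18.8% at Mef2d, against 32.0% of all. The Mef2a share was thus near that of all peaks. For wild type they were 0%, 9.09% and 0% at Mef2a, Mef2c and Mef2d, against 13.1% of all. The median log2 ratio at Mef2c was -0.29 for MyoD-null and -0.05 for wild-type differentiation, and between the myocyte lists it was -0.19, -0.20 and -0.11 at the 3 genes.

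On the scale of reads over the genome-wide background, the medians moved to 0.23 at Mef2d under the label MyoD-null, to 0.19, 0.07 and 0.25 at Mef2a, Mef2c and Mef2d under the label wild type, and to -0.08, -0.05 and -0.05 between the myocyte lists. The cause of these shifts was not tested. The main limits are 1 list per group, myocyte genotypes recorded in opposite ways, stage tied to the prefix in the peak names, a count of reads that leaves weak peaks near the limit of each list, and peaks without gene annotation.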

Other observations

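Gaps between summits were longest at Mef2a, where 85.6 kb without a listed summit lay in myocytes labelled MyoD-null, 52.4 kb in myocytes labelled wild type, 85.5 kb in MyoD-null myoblasts and 68.0 kb in wild-type myoblasts.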
